A study of Schizosaccharomyces japonicus with 6 samples.

Results

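Tj7 is a family of long terminal repeat (LTR) retrotransposons of the fission yeast Schizosaccharomyces japonicus. Its loci were taken by name, as every entry of the expression table whose identifier is Tj7 followed directly by a hyphen or a low line. This gave 22 of the 5152 loci in the table and 22 of the 266 loci of the families Tj1 to Tj10. Of the 22, 14 are partial elements and 8 are solo LTRs, and 0 are full-length. The RNA comes from 3 wild-type and 3 dcr1Δ* libraries, from cells grown in rich medium at 32 °C. Both strains are h- mat-P2028 and carry ura4-D3 and ade6(sj)-domE. The dcr1Δ* strain also carries the disruption dcr1-dis::natMX6 and the missense change mpe1-R77W, so the strains differ at more than dcr1. It is a single rare surviving isolate, and the study describes Tj7, alone among Tj1 to Tj10, as having gained copies in it. Copies that the assembly lacks can be counted only on the copies it holds, so the values below are not values per copy.

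An LTR retrotransposon moves by a copy-and-paste route: its RNA is reverse transcribed and the DNA copy is inserted at a new place. The LTRs at both ends hold the promoter and the transcript end, and the part between them encodes the structural and enzymatic proteins. Recombination between the LTRs of a copy removes the inner part and leaves a solo LTR, while deletions and later insertions leave partial elements. Dicer, the product of dcr1, cuts double-stranded RNA into the small RNAs of the RNA interference pathway, which silences such elements in many eukaryotes. Mpe1 is known in budding yeast as a subunit of the factor that cleaves and polyadenylates messenger RNA precursors.

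The measure used is the average expression of each locus over all 6 libraries, which the authors deposited as a log2 CPM (logCPM, counts scaled to library size). It has no value per library and none per strain. No spread between replicates, no test and no comparison of the strains can therefore be given here, and the depth of each library is unknown. The lowest level in the table was a logCPM of −3.99, or 0.0628 CPM, and 15 loci stood at it. It is taken here as the level of loci without reads, although no counts are given. Of these 15, 12 belonged to Tj1 to Tj10 and 0 to Tj7. Reads that mapped to several places were split among them, so Tj7 loci of like sequence can draw on common reads. How many reads they share was not measured. Because long loci collect more reads, levels of different loci are compared as CPM per kb of length.

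A pair of partial elements carried nearly all of the Tj7 signal. Tj7_partial_retrotransposon-1.1, at 4754 bases the longest Tj7 locus, lies on the plus strand of supercont5.1 from 1800740 to 1805493 (SJ5 assembly). Its average level was 2918 CPM, a logCPM of 11.51, and 614 CPM per kb. Tj7_partial_retrotransposon-28.1 spans 993 bases on the minus strand of the small contig supercont5.28, from 178 to 1170. It had 1034 CPM, a logCPM of 10.01, and 1041 CPM per kb. The order of these 2 elements thus depends on the scale, the first being higher in total and the second 1.70-fold higher per kb. They were also the 2 highest of all 266 loci of Tj1 to Tj10 on both scales. Together they held 97.3% of the 4060 CPM of Tj7, with 71.9% on the first. The first makes up 34.3% of the summed Tj7 length.

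A solo LTR came next. Tj7-type_LTR-1.3, on the plus strand of supercont5.1 from 1793596 to 1793806, had 40.1 CPM and 190 CPM per kb. Only the pair of partial elements above stood higher per kb among the 266 loci. The following value was that of Tj6_partial_retrotransposon-1.2, at 110 CPM per kb. Tj7-type_LTR-1.3 is enclosed by 2 partial Tj7 elements on the opposite strand. On its lower side, Tj7_partial_retrotransposon-1.8 lies 69 bases away and had 4.51 CPM per kb. On its other side, Tj7_partial_retrotransposon-1.6 begins at the next base and had 1.70 CPM per kb. The LTR was therefore far above both of its neighbours, although they belong to the same family. The kit was stranded, but the strand setting of the counting is not given in the sources used here, so sense and antisense reads cannot be told apart.

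**Figure D1:**
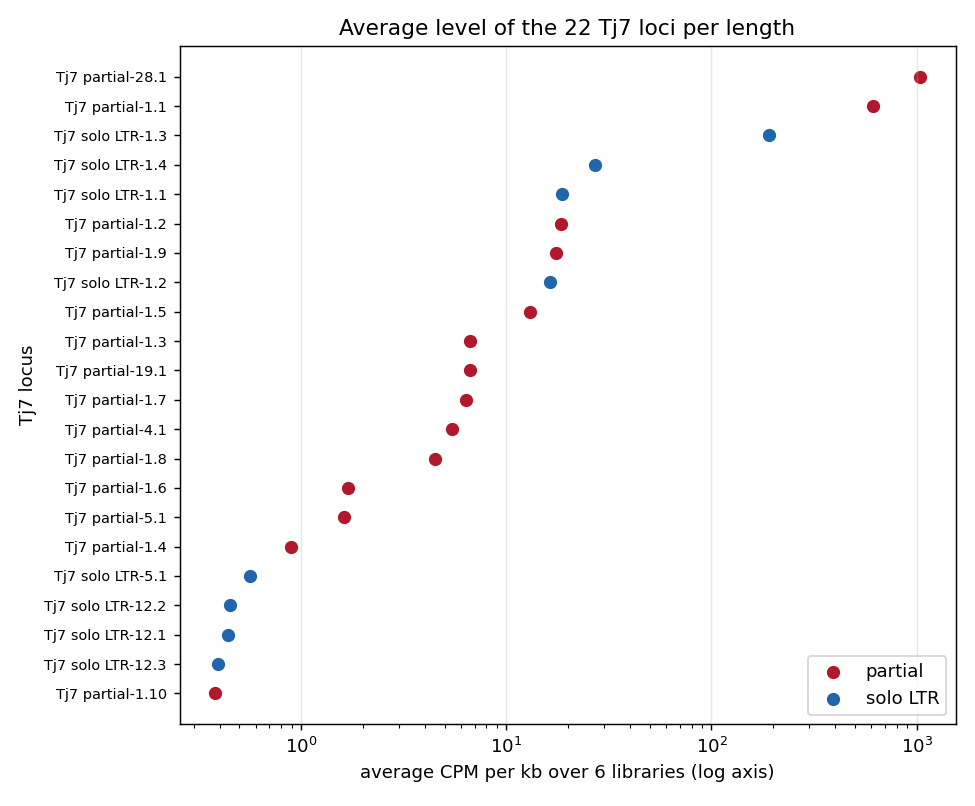
Average level of each of the 22 Tj7 loci, as CPM per kb over all 6 libraries on a log axis, with partial elements in red and solo LTRs in blue. Both elements at the top stand at 1041 and 614 CPM per kb, and the 4 solo LTRs at the low end lie between 0.393 and 0.566.

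The 14 partial elements covered a wide range. Behind the leading pair, Tj7_partial_retrotransposon-1.2 had 18.6 CPM per kb (25.3 CPM), Tj7_partial_retrotransposon-1.9 had 17.5 (3.73 CPM) and Tj7_partial_retrotransposon-1.5 had 13.0 (7.98 CPM). A middle group of 5 lay between 4.51 and 6.67 CPM per kb. In descending order it consists of Tj7_partial_retrotransposon-1.3, Tj7_partial_retrotransposon-19.1, Tj7_partial_retrotransposon-1.7, Tj7_partial_retrotransposon-4.1 and Tj7_partial_retrotransposon-1.8. These 5 loci lie on 3 contigs and their lengths run from 218 to 1344 bases. Below them stood Tj7_partial_retrotransposon-1.6 at 1.70 CPM per kb, Tj7_partial_retrotransposon-5.1 at 1.62 and Tj7_partial_retrotransposon-1.4 at 0.889. The lowest was Tj7_partial_retrotransposon-1.10, whose 0.0645 CPM is 1.03 times the level of loci without reads. Its value per kb, 0.380, is set almost wholly by that level. Tj7_partial_retrotransposon-5.1 is the shortest Tj7 locus, with 94 bases, and its 0.153 CPM is 2.43 times the same level.

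The 8 solo LTRs fell into 2 sets of 4 with no value between them. Those on supercont5.1 had 190, 26.9, 18.8 and 16.3 CPM per kb, for Tj7-type_LTR-1.3, Tj7-type_LTR-1.4, Tj7-type_LTR-1.1 and Tj7-type_LTR-1.2. In the other set, Tj7-type_LTR-5.1 on supercont5.5 had 0.566 CPM per kb. The LTRs on supercont5.12, Tj7-type_LTR-12.2, Tj7-type_LTR-12.1 and Tj7-type_LTR-12.3, had 0.449, 0.442 and 0.393. All 4 loci of this lower set were under 2 times the level of loci without reads, so they lie just above that level. Tj7-type_LTR-5.1 is about as long as the LTRs of the upper set, at 213 bases against 211 or 212. The LTRs on supercont5.12 are shorter, at 163 or 167 bases. The part of length or contig in this division was not tested. Because of this division a median of the solo LTRs falls where no locus lies. The 14 partial elements had a median logCPM of 0.98 and the 8 solo LTRs one of −0.63. On linear values per kb the order of the medians turned, with 6.50 CPM per kb for partial elements and 8.42 for solo LTRs.

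Longer partial elements tended to have higher totals. Over the 14 partial elements Spearman's rho between length and logCPM was 0.75, and between length and CPM per kb it was 0.56. Without the leading pair the values over 12 elements were 0.68 and 0.44. These points share libraries and may share split reads, and the correlations are descriptions only. The length did not fix the level: Tj7_partial_retrotransposon-1.2, Tj7_partial_retrotransposon-1.3 and Tj7_partial_retrotransposon-1.4 are 1361, 1344 and 1334 bases long, and had 25.3, 8.96 and 1.19 CPM. Tj7_partial_retrotransposon-28.1 is shorter than all 3 and had 1034 CPM.

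**Figure D2:**
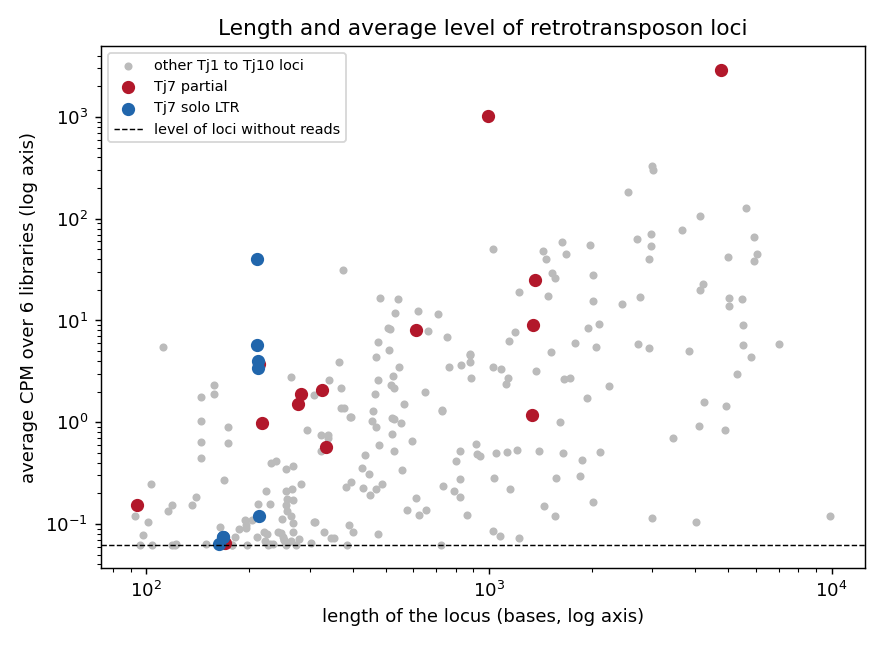
Average CPM over all 6 libraries against the length of the locus, both on log axes, for Tj7 partial elements (red), Tj7 solo LTRs (blue) and the other loci of Tj1 to Tj10 (grey). The dashed line is the level of loci without reads, 0.0628 CPM, and the leading pair of Tj7 stands above every other point at 1034 and 2918 CPM.

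Set beside the other families, Tj7 had the highest total. The study reports gained copies in dcr1Δ* for Tj7 alone, so totals and values per kb are not like for like between families. The part of that gain in the Tj7 values was not tested. Its 22 loci summed to 4060 CPM, which is 62.0% of the 6547 CPM of Tj1 to Tj10 and 0.405% of the CPM of all loci. Tj6 followed with 998 CPM over 27 loci and Tj9 with 603 CPM over 51 loci. Per kb of summed length the value was 293 CPM for Tj7, 28.1 for Tj6 and 17.2 for Tj2. Without the leading pair, and with every locus of the other families kept, Tj7 had 108 CPM on 20 loci. That is 4.16% of what remained of Tj1 to Tj10, with no regard to length. With the highest locus of every family left out instead, the Tj7 share was 38.8%. In the other families the highest locus held at most 41.4% of the family's CPM, in Tj2, where it is the full-length element Tj2-1, and as little as 11.1% in Tj9. For Tj7 this share was 71.9%. Tj9-3, a full-length element with 66.7 CPM, was the highest Tj9 locus, and Tj6_partial_retrotransposon-1.2 the highest Tj6 locus with 329 CPM.

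A typical Tj7 locus stood less apart. The median logCPM of Tj7 was 0.98, second to the 1.43 of Tj9 and close to the 0.72 of Tj6 and the 0.64 of Tj2. Per kb the median of Tj7 was the highest of the 10 families, at 6.50 CPM per kb against 3.85 for Tj2, 3.65 for Tj9 and 3.31 for Tj6. With solo LTRs left out of every family, Tj7 had rank 5 by median logCPM. Of the 22 Tj7 loci, 14 (63.6%) had a logCPM of at least 0, against 46.2% of all 266 loci, 74.5% of Tj9 and 0 of the 13 Tj4 loci. Over the whole table the share was far higher. Only 5.01% of its loci lay below the Tj7 locus at a logCPM of −0.0252, and 5.49% below that at 0.246. The median over all 5152 loci of the table was 5.93, on the logCPM scale with no regard to length. Loci of a family may share split reads, the families differ in their mix of element types and in reported copy gain, and the differences were not tested.

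**Figure D3:**
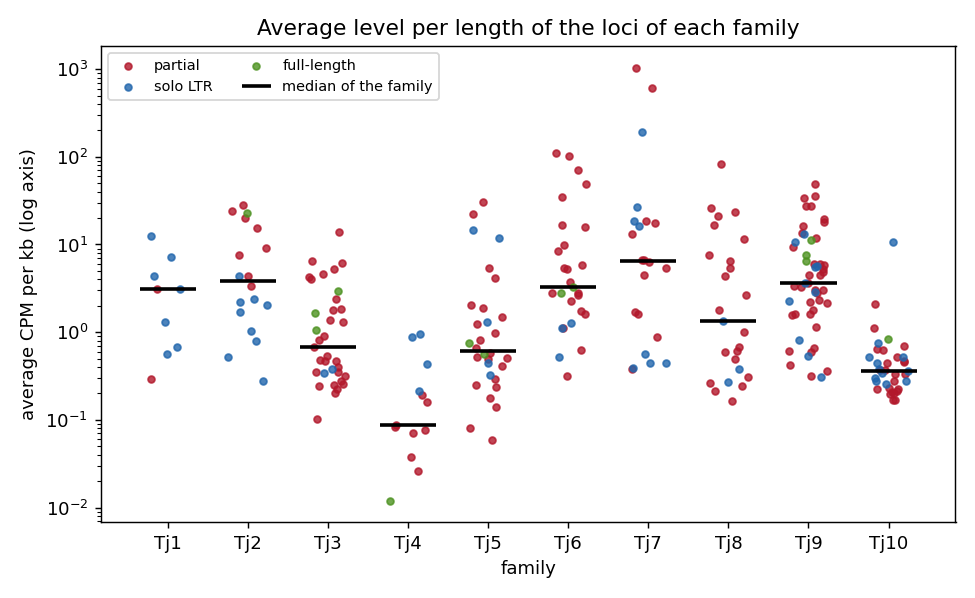
Average CPM per kb of each locus of Tj1 to Tj10 on a log axis, with full-length elements in green, partial elements in red, solo LTRs in blue and the median of each family as a black line. The Tj7 median, 6.50 CPM per kb, is the highest line, but most Tj7 points overlap those of Tj2, Tj6 and Tj9, and 3 Tj7 loci exceed the highest Tj6 value of 110.

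The position of each locus shows where the family sits. With neighbouring elements joined into arrays where their gap was 50 kb or less, 13 of the 22 Tj7 loci lay in a single array of 52 elements on supercont5.1, from 1772863 to 1861017. The array holds elements of 13 Tj families. Within it the Tj7 loci, 9 partial and 4 solo, span 55713 bases from 1793309 to 1849021. The array carried 74.4% of the Tj7 CPM, nearly all of it on Tj7_partial_retrotransposon-1.1. A further 25.5% fell on Tj7_partial_retrotransposon-28.1, and the 8 remaining loci held the small rest. All 4 solo LTRs of the array stood above all 4 elsewhere, of which 3 are the shorter LTRs of supercont5.12. All 4 elsewhere lay just above the level of loci without reads. Solo LTRs of other families were not divided by place. The partial elements overlapped, with medians of 6.67 CPM per kb for the 9 in the array and 6.35 for the 5 elsewhere.

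Genes were placed beside this array with the RefSeq annotation of SJ5, which gives positions without contig names. Of its 3 runs of rising positions long enough to reach the array, 1 was taken for supercont5.1, because its genes overlap the elements of that contig by 462 bases, against 41134 and 79085 bases for the other 2. In this run no gene overlaps a Tj7 locus of the array, which follows largely from that choice. Between the first and the last Tj7 locus this run lists 36 genes, of which 35 are tRNA genes, 1 is a tRNA pseudogene and 0 code for proteins. For each of the 13 Tj7 loci the nearest gene was a tRNA gene, at a distance of 246 to 2851 bases with a median of 860. The span holds hardly any other kind of gene, so this was nearly fixed for any element there. For the 19 other elements of the span the nearest gene was also a tRNA gene or pseudogene, at 11 to 1079 bases with a median of 348. Clusters of tRNA genes are known at the centromeres of fission yeasts. The nearest protein-coding genes lay 19208 bases below and 154510 bases above the span. The expression table lists 0 of the 36 genes.

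The Tj7 loci of the array are interleaved with other families. Its span holds 32 elements, 13 of Tj7, 7 of Tj6, 5 of Tj1, 5 of Tj19 and 1 each of Tj3 and Tj10. Of the solo LTRs, 3 are each enclosed by partial Tj6 elements on the same strand. Tj7-type_LTR-1.4 begins at the base after Tj6_partial_retrotransposon-1.9 and overlaps Tj6_partial_retrotransposon-1.2 by 1 base. Tj7-type_LTR-1.1 overlaps Tj6_partial_retrotransposon-1.1 by 1 base and is followed at the next base by Tj6_partial_retrotransposon-1.7. Tj7-type_LTR-1.2 lies 50 bases from Tj6_partial_retrotransposon-1.4 and directly before Tj6_partial_retrotransposon-1.6. The levels of LTR and neighbours differed. Tj7-type_LTR-1.4 had 26.9 CPM per kb between Tj6 neighbours at 34.8 and 110. Tj7-type_LTR-1.1 had 18.8 between neighbours at 101 and 9.97, and Tj7-type_LTR-1.2 had 16.3 between neighbours at 5.45 and 16.0. How reads across such borders were assigned is not given in the sources used here, and their part in the LTR values was not tested.

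Over all contigs, 16 of the 22 Tj7 loci had another element within 100 bases, and 9 touched or overlapped one. The same counts were not made for the other families, so they are not shown to be particular to Tj7. Outside the array the neighbours were of other families. Tj7_partial_retrotransposon-1.7, on the minus strand of supercont5.1 from 6302 to 6626, begins at the base after the full-length element Tj12-1. It had 2.06 CPM. Tj7_partial_retrotransposon-19.1, from 4693 to 4975 on supercont5.19, is enclosed by Tj13_partial_retrotransposon-19.1 and Tj5_partial_retrotransposon-19.1, both on the opposite strand. It had 6.66 CPM per kb, while the Tj5 neighbour, which it overlaps by 2 bases, had 0.500. Tj7_partial_retrotransposon-4.1, from 107052 to 107329 on supercont5.4, begins directly after Tj13-type_LTR-4.1 and had 1.52 CPM. Tj7-type_LTR-5.1, from 87264 to 87476 on supercont5.5, lies 39 bases from Tj15_partial_retrotransposon-5.3 and directly before Tj4_partial_retrotransposon-5.1. The Tj4 neighbour had 0.161 CPM per kb against 0.566 for the LTR, but 0.298 CPM against 0.121, so their order depends on the scale. The expression table has no entry named for elements of Tj12, Tj13, Tj15 and Tj19, so they have no value here. Annotated genes inside such elements may be listed under their own names and were not used.

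Part of the array reads as a mirror image of itself. Pairs of elements of the same family and type on opposite strands were searched for a shared centre, within 50 bases. The best centre united 7 pairs from 4 families over 17388 bases, from 1824730 to 1842117, and no other centre united more than 2. Of the 7 pairs 3 are Tj7, 2 are Tj6, and Tj1 and Tj19 give 1 each. The tRNA genes, which were not used in the search, followed the same centre. With the tRNA pseudogene counted, all 5 on the lower side had a counterpart such that the midpoint of both lay within 50 bases of the centre. For 3 of them a tRNA gene of equal length was such a counterpart. The search was made on positions alone and shows no sequence.

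The mirrored Tj7 loci differed in level to unequal degrees. Tj7-type_LTR-1.4 and Tj7-type_LTR-1.1, 211 and 212 bases long, were close, with 26.9 and 18.8 CPM per kb. Tj7_partial_retrotransposon-1.3 had 6.67 CPM per kb and its counterpart Tj7_partial_retrotransposon-1.2 had 18.6, a difference of 1.48 on the log2 scale. The third pair stood furthest apart. Tj7_partial_retrotransposon-1.9, 214 bases long, was at 59.5 times the level of loci without reads, whereas Tj7_partial_retrotransposon-1.10, 170 bases long, was at 1.03 times that level. Each of them lies 54 bases from the longer piece of its own arm. The large Tj6 pieces of both arms, Tj6_partial_retrotransposon-1.2 and Tj6_partial_retrotransposon-1.1, were nearly equal at 110 and 101 CPM per kb. With no value per library, none of these differences can be set against a replicate error.

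**Figure D4:**
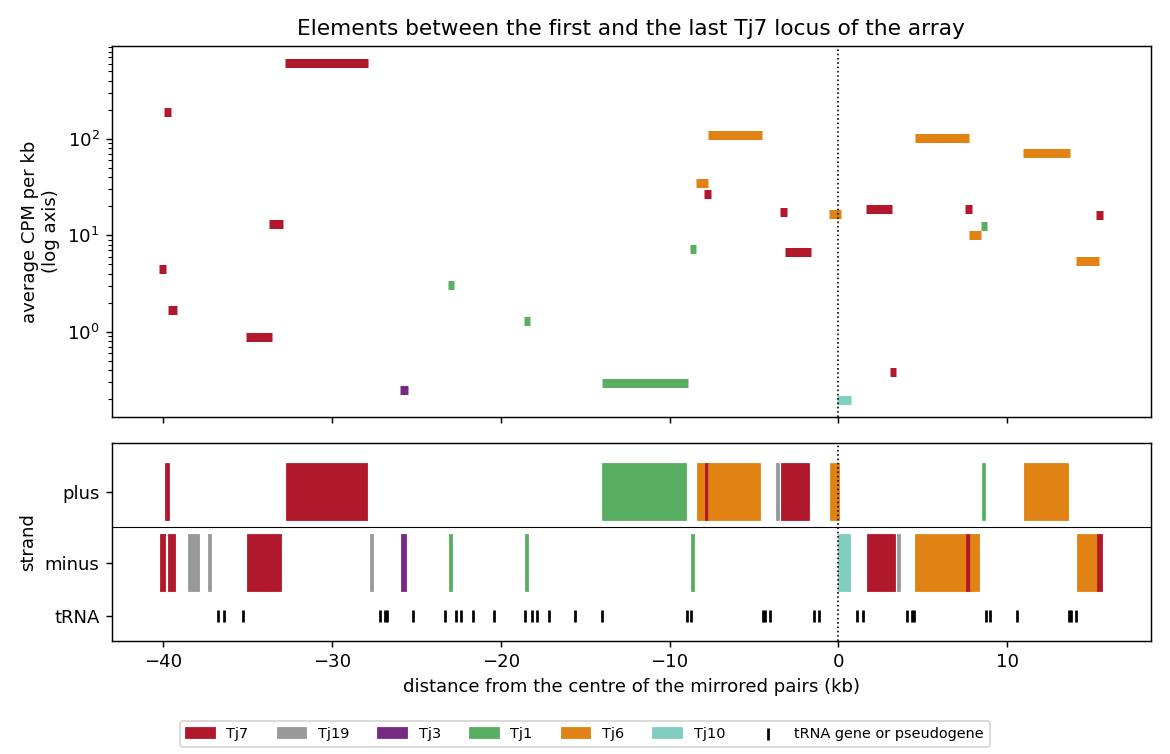
Elements between the first and the last Tj7 locus of the array on supercont5.1, against the distance in kb from the centre of the mirrored pairs (dotted line). The upper panel gives the average CPM per kb on a log axis and the lower panel the strand. Families are shown by colour, and black ticks mark tRNA genes or pseudogenes. Right of the centre a short Tj7 piece stands at 0.380 CPM per kb, while its counterpart left of the centre stands at 17.5.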

How the data were processed

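RNA of 3 wild-type and 3 dcr1Δ* libraries was sequenced paired-end after preparation with a stranded TruSeq mRNA kit. The authors trimmed reads with Trim Galore (0.4.3.1), aligned them with STAR (2.7.2b) to SJ5 and counted them with featureCounts (2.0.1 per the labels), dividing multi-mapping reads into fractions. The deposited table gives an average log2 CPM over all libraries, from edgeR (3.34.0 per the labels) run by the authors. Its low-count filter, normalization and prior count are not given in the sources used here. The table's remaining columns hold the authors' own comparison of the strains (fold change, F, p and FDR) and were not used. No library has values of its own, so depth per library is unknown.

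CPM was computed as 2 to the power of the deposited log2 value, and divided by length in kb. Positions come from the study's list of 396 elements, in which 5 starts are 0. Starts were therefore taken as 0-based and printed as 1-based. Genes were placed with the SJ5 annotation of RefSeq. All 22 Tj7 loci are named, with other loci only where they lie within 100 bases of one or lead their family by CPM, apart from Tj6 elements of supercont5.12. The lists and members were chosen with earlier results of these data known, and the mirrored pairs after the positions had been seen. Alternatives concerned the level of loci without reads, low values, element types, length, leading loci and distance. A family sum, a family rank and the division by length were tested on simulated data, but shares were not. Python 3.11.15, numpy 2.4.6, pandas 2.3.3, scipy 1.17.1 and matplotlib 3.10.9 were used.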

Additional observations from a re-analysis of the deposited data

How the results depend on the processing

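No paired analysis was possible because the values are averages over both strains. For the same reason no replicate could be left out. The Tj7 total of 4060 CPM became 4006 without solo LTRs and 1142 without its highest locus. The Tj7 share of the CPM of Tj1 to Tj10, 62.0%, became 62.1% with the level of loci without reads subtracted, 57.6% with CPM divided by length, 38.8% with the highest locus of every family left out, and 4.16% without the 2 highest Tj7 loci, a setting added after the data were examined. The share of the highest locus, 71.9%, became 52.3% with CPM divided by length, where Tj7_partial_retrotransposon-28.1 leads. The median logCPM of 0.98 became 2.25 over the 14 loci at or above 0. The difference in median logCPM of partial elements over solo LTRs, 1.61, became 1.10 per kb, 2.11 without partial elements shorter than the longest solo LTR, and 1.55 without the highest locus. The 1.10 holds for log2 values. On linear values per kb the order of the medians turned, with 6.50 for partial elements and 8.42 for solo LTRs. Tj7 ranked second of 10 families by median logCPM, but 4 with loci at the lowest level left out, 1 per kb and 5 without solo LTRs. Of the 16 loci within 100 bases of another element, 9 touched or overlapped one. Of the 22 loci, 5 lie above the level of loci without reads, 0.0628 CPM, by less than 2 times, so that level makes up most of their values.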

Other observations

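On supercont5.12 the Tj7 solo LTRs recur at a nearly regular spacing. The starts of Tj7-type_LTR-12.1 and Tj7-type_LTR-12.2 are 3697 bases apart and those of Tj7-type_LTR-12.2 and Tj7-type_LTR-12.3 are 3651 bases apart, all 3 on the minus strand. The other 6 elements of this contig are partial Tj6 elements, all on the plus strand. The LTRs stood at 1.17, 1.19 and 1.02 times the level of loci without reads, or between 0.393 and 0.449 CPM per kb. Per kb, the 5 Tj6 elements next to them lay on both sides of these values. In CPM all 5 stood above the LTRs, at 0.236 to 1.12 against 0.0641 to 0.0750. Tj6_partial_retrotransposon-12.1, the closest at 687 bases, had 0.321 CPM per kb, and Tj6_partial_retrotransposon-12.4 had 1.59, Tj6_partial_retrotransposon-12.5 had 2.29, and Tj6_partial_retrotransposon-12.2 and Tj6_partial_retrotransposon-12.6 had 2.83 each. The spacing and these neighbours were chosen after their values were seen.

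Adjacent Tj7 pieces on a strand can differ widely. Tj7_partial_retrotransposon-1.4 and Tj7_partial_retrotransposon-1.5 lie 48 bases apart on the minus strand of supercont5.1 and had 0.889 and 13.0 CPM per kb. Tj7_partial_retrotransposon-1.1 begins 302 bases beyond the second of them, on the opposite strand, with 614 CPM per kb. Whether reads of the long element reach the piece beside it was not tested.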
